A study of Mus musculus with 36 samples.

Results

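The pentose phosphate pathway enzymes described here are the products of 7 genes, G6pdx, Pgls, Pgd, Rpia, Rpe, Tkt and Taldo1. They were picked by gene symbol and not by a cut on measured values, but with earlier results of these data known. Each symbol matched 1 of the 12762 rows of the expression table. Messenger RNA was sequenced in 36 libraries of B3, a mouse pre-B cell line that serves as a model of dividing B cell precursors. Cells of the Ikaros line carried an MSCV retroviral vector with haemagglutinin-tagged Ikaros (Ikzf1), a transcription factor of lymphocyte development, fused to the ERt2 hormone-binding domain and followed by IRES-GFP. Cells of the control line carried the same kind of vector with ERt2 and GFP but no Ikaros, and both lines were pools of GFP-sorted cells, not single clones. Times are hours of drug exposure before collection, 0, 2, 6, 12, 18 and 24 h, which gives 12 groups of 3 libraries. By the study's methods, all cells of a batch were harvested at once. Both lines received 4-hydroxy-tamoxifen (4-OHT) at 0.5 uM, a drug that moves the fusion protein into the nucleus. The labels name the drug for 0 h as well, but by the study's methods 0 h cells went without it and were obtained apart from the rest, so that a comparison with 0 h also compares the ways the cells were obtained. Libraries at 0 h came from culture batches 1, 2 and 4, later ones from batches 1, 3 and 4, and values are listed below in that order.

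The pentose phosphate pathway draws glucose 6-phosphate away from glycolysis. Its oxidative steps reduce NADP+ to NADPH, which feeds glutathione and thioredoxin systems and the synthesis of lipids and deoxynucleotides. Its non-oxidative steps interconvert sugar phosphates, so that ribose 5-phosphate can be made for nucleotides and surplus carbon can return to glycolysis. Dividing lymphocyte precursors use both products, and textbook regulators of these genes include Myc and the oxidative stress factor Nrf2 (Nfe2l2).

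All values are log2 expression, corrected by the authors for GC content and gene length, and a difference of 1 is a 2-fold change. They are relative within a library, so a change in RNA per cell cannot be told apart from a change in the share of that RNA held by a gene, nor fewer expressing cells from less RNA in each. Ikzf1 lay between 13.95 and 14.85 in the 18 control libraries and between 19.63 and 20.93 in the 18 Ikaros libraries, as the line labels require. All 13 B lineage and pre-B markers read here had a value, 10 of them above the median gene mean of 11.72, while Rag1 (mean 11.19), Rag2 (mean 10.52) and Dntt (mean 8.27) lay below it. Of 17 markers of T, myeloid, erythroid, NK and stromal cells 4 had a value (Lyz2, Itgam, Klf1 and Klrb1c), none above that median, and the other 13 were not analysed here. The log2 of their summed level at 24 h was 8.53 to 9.67 in control and 9.90 to 10.22 in Ikaros cells, and for the pre-B markers 19.77 to 19.86 and 20.19 to 20.32. Such a sum gives most weight to its highest genes, among the pre-B markers Cd79a (mean 18.38) and Cd24a (mean 17.31). It does not show that single markers moved alike, and Igll1, for example, ran from 11.87 to 17.22 over the libraries. At 0 h the sum for other cell types was already higher in Ikaros cells, 9.65 to 10.26 against 8.62 to 8.80, whereas that of the pre-B markers was lower, 19.43 to 19.49 against 19.83 to 19.92. The part of these shifts in the results was not tested. No pair of libraries shared more than 0.384% of its values.

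The promoter windows that hold a match to 1 of 3 short motifs are shown first. RefSeq promoter windows (GRCm38.p6, 250 bases before to 50 after a start site) were found for all 7 genes, 8 windows in all because Pgd has 2 start sites. Both strands were searched for TGGGAA, a core bound by Ikaros, CACGTG, the E-box of Myc-type factors, and TGACNNNGC, the core of the antioxidant response element of Nrf2. Each sequence runs 5′ to 3′ on the strand of its gene, and capitals mark the matched letters.
G6pdx promoter, chrX:74428831-74429130, reverse strand: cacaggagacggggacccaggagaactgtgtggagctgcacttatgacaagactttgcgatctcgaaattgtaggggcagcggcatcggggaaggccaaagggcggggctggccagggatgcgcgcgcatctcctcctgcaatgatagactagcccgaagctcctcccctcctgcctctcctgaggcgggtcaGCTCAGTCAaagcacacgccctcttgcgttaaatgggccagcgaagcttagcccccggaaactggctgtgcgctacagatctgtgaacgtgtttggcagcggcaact
Pgd promoter at its internal start site, chr4:149166033-149166332, reverse strand: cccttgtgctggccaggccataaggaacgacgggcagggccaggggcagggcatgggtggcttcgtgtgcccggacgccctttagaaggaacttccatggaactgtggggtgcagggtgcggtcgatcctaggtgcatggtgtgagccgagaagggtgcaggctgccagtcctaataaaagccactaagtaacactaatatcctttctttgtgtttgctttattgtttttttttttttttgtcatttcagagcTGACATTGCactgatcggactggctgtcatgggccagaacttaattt
Rpia promoter, chr6:70792126-70792425, reverse strand: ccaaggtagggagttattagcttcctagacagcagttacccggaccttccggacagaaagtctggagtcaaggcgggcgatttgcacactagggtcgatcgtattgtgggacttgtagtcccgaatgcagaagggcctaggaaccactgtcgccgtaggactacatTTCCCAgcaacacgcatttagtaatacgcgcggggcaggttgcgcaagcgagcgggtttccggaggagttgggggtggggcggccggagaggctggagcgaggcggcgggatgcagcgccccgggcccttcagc
The G6pdx match is the reverse complement of TGACNNNGC and begins at position -57 from the start site, whose first transcribed base is 1. The Pgd match reads TGACNNNGC itself and begins at position 4 from the internal start, inside the transcribed part, and the upstream Pgd window had no match. In Rpia the reverse complement of TGGGAA begins at position -84. Over all 32851 RefSeq windows of this length, TGGGAA occurred in 25.6%, CACGTG in 7.15% and TGACNNNGC in 12.4%, against 1, 0 and 2 of the 8 windows of the members. No motif was found in the Pgls, Rpe, Tkt and Taldo1 windows, and a match or its absence in these letters is a description only.

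In both lines the 7 genes spanned a wide range of levels on the length-corrected scale. Averaged over the 36 libraries, Tkt had a level of 17.08, above 98.7% of the gene means, Pgls 15.25 (95.3%), Pgd 14.28 (89.1%), Taldo1 14.23 (88.7%), G6pdx 13.24 (75.9%), Rpe 12.32 (60.8%) and Rpia 12.02 (55.3%). Tkt stood above Pgls in all 12 groups, and their libraries overlapped in 0 of them. Pgd and Taldo1 were neighbours, with Pgd higher in 8 groups and Taldo1 in 4, and their libraries overlapped in 7, so this pair was often not separated beyond its spread. Rpe was higher than Rpia in 11 of 12 groups, with overlap in 4. In length-corrected level, Pgd exceeded Taldo1 in control cells at 24 h (14.35 against 14.05) and lay below it in Ikaros cells at 24 h (14.00 against 14.45), without overlap of the libraries in either group.

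**Figure D1:**
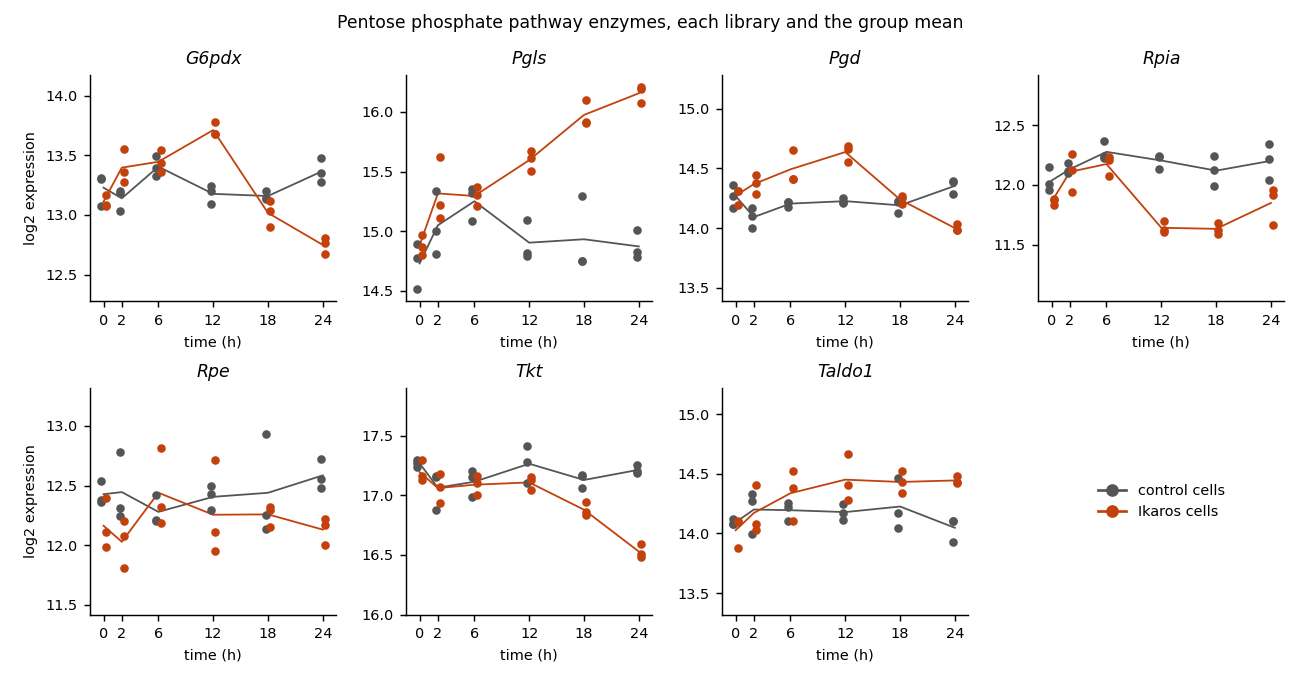
Log2 expression of the 7 genes (vertical axes, each spanning 1.9 log2 units) against time in hours; points are single libraries and lines join the means of 3. The lines are close at 0 h, G6pdx and Pgd are above control at 12 h and below it at 24 h in Ikaros cells, Pgls climbs to 16.16 on average, and Tkt drops to 16.53.

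The main comparison asks how Ikaros cells differed from control cells at each time. At 24 h all 7 genes were called (limma, adjusted p under 0.05), 5 lower and 2 higher in Ikaros cells. At that time 62.9% of all genes were called, 31.9% lower and 31.0% higher, so that calls were common throughout the table. For all 7 the 3 Ikaros libraries lay beyond the 3 control libraries, as they did for 71.0% of all genes. Most of the differences were small. The median absolute log2 difference was 0.45 over the members and 0.68 over all genes, and only Pgls was called with a difference of at least 1, against 32.7% of all genes.

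Counts at the earlier times were lower. No member was called at 0 h, when 8.33% of all genes were, and 0 had an unadjusted p under 0.05 in limma. Of the 7 genes, 2 were called at 2 h (19.1% of all genes called), 1 at 6 h (37.3%), 4 at 12 h (45.8%) and 3 at 18 h (58.2%). These counts lie near the shares over all genes and say nothing particular about the members. The median difference over the members was highest at 12 h, with 0.27, and lowest at 24 h, with -0.35, while that over all genes was -0.01 and -0.0055.

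**Figure D2:**
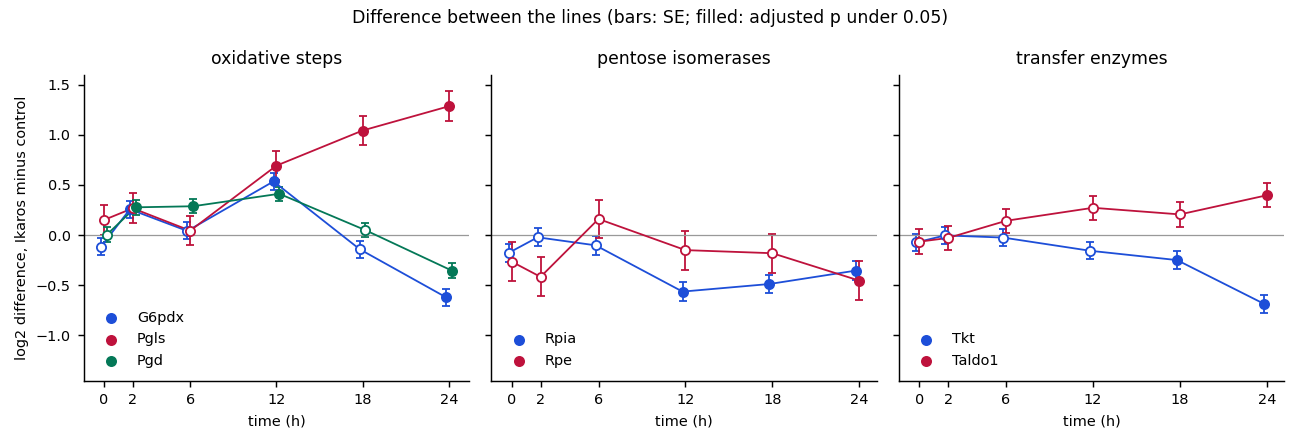
Log2 difference between Ikaros and control cells (vertical axis) against time in hours for the oxidative steps, the isomerases and the transfer enzymes; bars are the SE of the limma fit and filled points have an adjusted p under 0.05. At 24 h the differences run from -0.69 for Tkt to 1.28 for Pgls, and G6pdx and Pgd pass from above to below 0 between 12 h and 24 h.

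G6pdx (ENSMUSG00000031400; GRCm38 chromosome X, 74409483 to 74429194, reverse strand, protein coding) encodes glucose-6-phosphate dehydrogenase, the entry enzyme and a main control point of the oxidative steps. At 0 h its level was 13.30, 13.31 and 13.07 in control and 13.08, 13.17 and 13.09 in Ikaros cells. At 2 h it was 13.03, 13.18 and 13.20 against 13.28, 13.36 and 13.55. The groups overlapped at 0 h, and at 2 h every Ikaros library was above every control library. At 12 h G6pdx read 13.24, 13.20 and 13.09 in control and 13.68, 13.68 and 13.78 in Ikaros cells. By 18 h the readings were 13.20, 13.14 and 13.13 against 13.12, 13.03 and 12.90, and at 24 h 13.35, 13.28 and 13.48 against 12.81, 12.76 and 12.68. All Ikaros libraries were thus above control at 12 h and all below at 18 h and 24 h.

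The G6pdx difference was 0.26 at 2 h (SE 0.08, adjusted p = 0.034 in limma), 0.04 at 6 h (adjusted p = 0.737), 0.53 at 12 h (adjusted p = 9.56e-06), -0.14 at 18 h (adjusted p = 0.157) and -0.62 at 24 h (adjusted p = 4.52e-07). The last of these is a level 1.54-fold lower. Within batches the 24 h difference was -0.54, -0.52 and -0.80, and the 12 h difference 0.44, 0.48 and 0.68. In Ikaros cells alone, G6pdx fell by 0.69 between 12 h and 18 h (limma, SE 0.08, adjusted p = 1.28e-06). Its 2 h call was lost in each fit that left out a replicate (adjusted p = 0.205, 0.257 and 0.0840 without replicates 1, 2 and 3) and in a fit of the 2 h groups alone (adjusted p = 0.341).

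Pgd (ENSMUSG00000028961; chromosome 4, 149149991 to 149166771, reverse strand) encodes 6-phosphogluconate dehydrogenase, which makes the second NADPH of the pathway and releases ribulose 5-phosphate. Its level at 0 h was 14.27, 14.37 and 14.17 in control and 14.31, 14.31 and 14.19 in Ikaros cells. At 6 h Pgd stood at 14.18, 14.22 and 14.22 in control and at 14.41, 14.41 and 14.65 in Ikaros cells. The groups overlapped at 0 h and were apart at 6 h, with Ikaros cells higher. At 12 h the libraries gave 14.21, 14.25 and 14.22 against 14.56, 14.66 and 14.69. At 24 h they gave 14.29, 14.38 and 14.39 against 13.98, 13.98 and 14.04. Pgd in Ikaros cells was therefore above control at 12 h and below at 24 h in every library, the order seen for G6pdx.

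Between the lines, the Pgd difference was 0.28 at 2 h (SE 0.07, adjusted p = 0.00677 in limma), 0.29 at 6 h (adjusted p = 0.00248) and 0.41 at 12 h (adjusted p = 3.28e-05). The difference was 0.05 at 18 h (adjusted p = 0.579) and -0.35 at 24 h (adjusted p = 0.000113), a level 1.28-fold lower. Within batches the 24 h difference was -0.31, -0.40 and -0.36. In Ikaros cells, Pgd fell by 0.40 between 12 h and 18 h (limma, SE 0.07, adjusted p = 0.000184). This step was not called without replicate 2 (adjusted p = 0.0565). The 2 h call was lost without replicate 1 (adjusted p = 0.136), without replicate 2 (adjusted p = 0.214) and in a fit of the 2 h groups alone (adjusted p = 0.257), and the 6 h call without replicate 2 (adjusted p = 0.0591) and in one of the 6 h groups alone (adjusted p = 0.180).

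Pgls (ENSMUSG00000031807; chromosome 8, 71592176 to 71601092, forward strand) encodes 6-phosphogluconolactonase, which acts between G6pdx and Pgd. Its level at 0 h was 14.77, 14.90 and 14.52 in control and 14.97, 14.87 and 14.80 in Ikaros cells. At 12 h it reached 14.82, 14.79 and 15.10 in control against 15.61, 15.50 and 15.68 in Ikaros cells. The groups overlapped at 0 h and were apart at 12 h. At 18 h the readings were 14.75, 14.75 and 15.30 in control and 16.10, 15.92 and 15.90 in Ikaros cells, and at 24 h 14.83, 14.78 and 15.01 against 16.19, 16.21 and 16.07. The batch 4 control library at 18 h was the highest control value of that time, and all Ikaros libraries still lay above it.

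At 0, 2 and 6 h the Pgls difference was 0.15, 0.27 and 0.04, without a call (limma, SE 0.15, adjusted p = 0.673, 0.231 and 0.843). It was 0.69 at 12 h (adjusted p = 0.000355), 1.04 at 18 h (adjusted p = 9.51e-07) and 1.28 at 24 h (adjusted p = 2.22e-08), a level 2.43-fold higher. Within batches the 24 h difference was 1.36, 1.42 and 1.07. Pgls thus went the opposite way to its neighbours in the pathway after 12 h.

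Pgls, G6pdx and Rpe share exonic sequence with another gene in the GENCODE M21 annotation, which limits what their values mean. Pgls shares 776 exonic bases, 20.6% of its annotated exonic sequence, with Fam129c on the same strand, all through 1 Pgls transcript annotated as a target of nonsense-mediated decay. Reads in that stretch cannot be told apart by strand. Fam129c was also higher in Ikaros cells. Its difference at 6, 12, 18 and 24 h was 0.48, 1.26, 2.93 and 2.90 (SE 0.14 in limma), with an adjusted p of 0.00686 at 6 h and 7.65e-16 at 24 h. At 6 h the Pgls difference was 0.04, and at 24 h the lowest Pgls level in Ikaros cells was 16.07 and the highest Fam129c level 14.04, both length-corrected. The part of Fam129c reads in the Pgls values was not tested.

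**Figure D3:**
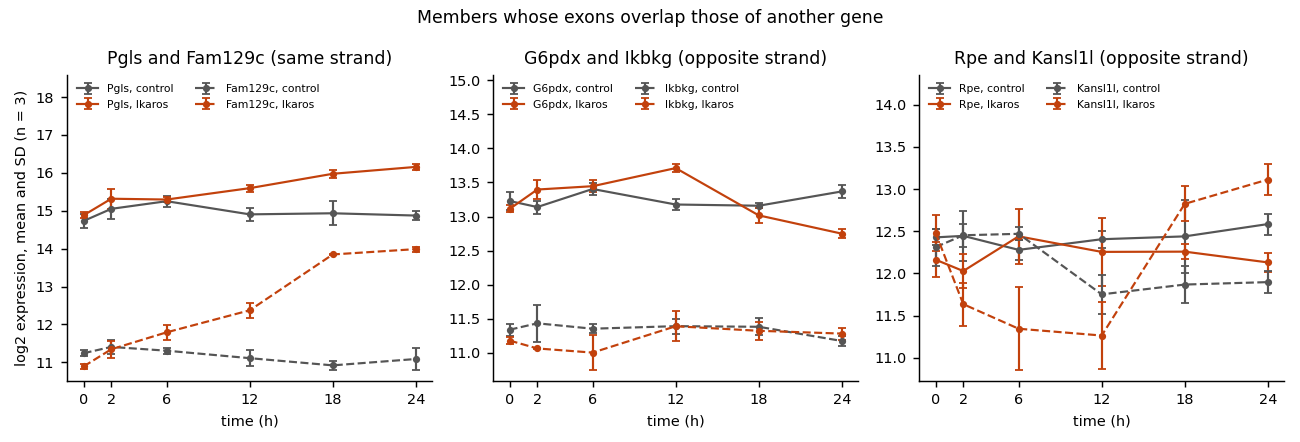
Mean log2 expression with SD (n = 3) against time in hours for Pgls, G6pdx and Rpe (solid) and the gene whose exons each overlaps (dashed). Fam129c climbs in Ikaros cells from 10.89 to 13.99 while Pgls climbs from 14.88 to 16.16; Ikbkg and Kansl1l do not follow G6pdx and Rpe at 24 h.

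G6pdx shares 418 exonic bases (13.6%) with Ikbkg and Rpe shares 558 (17.9%) with Kansl1l, both on the opposite strand. Libraries were strand-specific, but the strand setting of the counting is not given in the sources used here. Ikbkg, a subunit of the NF-kB kinase complex, had a difference of -0.37 at 2 h (SE 0.12, adjusted p = 0.0381 in limma), when G6pdx was higher, and by 0.11 at 24 h (adjusted p = 0.464), when G6pdx was lower. The Kansl1l difference was -0.82 at 2 h (SE 0.20, adjusted p = 0.00514 in limma), when that of Rpe was -0.42, without a call. At 6, 12 and 18 h it was -1.12, -0.49 and 0.96, against 0.16, -0.15 and -0.18 for Rpe. By 24 h Kansl1l stood at 1.22 (limma, adjusted p = 1.02e-05), when Rpe was lower. The part of Kansl1l reads in the Rpe values was not tested. G6pd2, an intronless copy of G6pdx, was not analysed here, and the G6pdx values are uncertain as far as the copies share reads. Pgd, Rpia and Taldo1 overlap no other annotated gene, and Tkt shares 1 base with the microRNA gene Mir3076.

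Rpia (ENSMUSG00000053604; chromosome 6, 70765720 to 70792232, reverse strand) encodes ribose-5-phosphate isomerase, which makes the sugar of nucleotides. At 6 h its level was 12.24, 12.22 and 12.36 in control and 12.21, 12.24 and 12.08 in Ikaros cells. At 12 h it was 12.14, 12.24 and 12.24 against 11.60, 11.69 and 11.62. The groups overlapped at 6 h and were apart at 12 h, with Ikaros cells lower. At 18 h Rpia read 11.99, 12.24 and 12.13 in control and 11.58, 11.68 and 11.62 in Ikaros cells, and at 24 h 12.04, 12.35 and 12.22 against 11.67, 11.92 and 11.96. The Ikaros libraries stayed below control at both times.

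The Rpia difference was -0.56 at 12 h (SE 0.09, adjusted p = 1.29e-05 in limma), -0.49 at 18 h (adjusted p = 5.2e-05) and -0.35 at 24 h (adjusted p = 0.00153), a 1.28-fold lower level at 24 h. The 24 h call was lost in a fit of the 24 h groups alone (adjusted p = 0.0541). Within batches the 24 h difference was -0.38, -0.43 and -0.25. In Ikaros cells Rpia fell by 0.53 between 6 h and 12 h (limma, SE 0.09, adjusted p = 0.000207). That step was not called when only its own groups were fitted (adjusted p = 0.115). At 0 h the difference was already -0.18 (adjusted p = 0.301), with no overlap of the libraries.

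Rpe (ENSMUSG00000026005; chromosome 1, 66700831 to 66719805, forward strand) encodes ribulose-5-phosphate epimerase, which makes xylulose 5-phosphate for the transfer reactions. Its level at 24 h was 12.48, 12.56 and 12.72 in control and 12.17, 12.22 and 12.01 in Ikaros cells. Over the other times it ranged from 12.13 to 12.93 in control and from 11.81 to 12.81 in Ikaros cells. At 2 h the Rpe readings were 12.78, 12.24 and 12.31 against 11.81, 12.07 and 12.20, without overlap, and at 0, 6, 12 and 18 h the groups overlapped. The difference of -0.45 at 24 h had the largest adjusted p of the 7 genes at that time (limma, SE 0.19, adjusted p = 0.0439) and was not called without replicate 1, 2 or 3 (adjusted p = 0.0946, 0.133 and 0.108). Within batches it was -0.31, -0.34 and -0.71. The 2 h difference was -0.42 (limma, adjusted p = 0.144), and within batches -0.98, -0.17 and -0.11. It was -0.14 without replicate 1 (adjusted p = 0.835) and -0.57, a call, without replicate 3 (adjusted p = 0.0271), and a call of -0.43 at 12 h also appeared without replicate 3 (adjusted p = 0.0491).

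Tkt (ENSMUSG00000021957; chromosome 14, 30548359 to 30574720, forward strand) encodes transketolase, which moves carbon units between sugar phosphates and links the pathway back to glycolysis. Its level at 0 h was 17.24, 17.27 and 17.29 in control and 17.29, 17.13 and 17.16 in Ikaros cells. At 18 h it was 17.16, 17.17 and 17.06 against 16.83, 16.94 and 16.86. The groups overlapped at 0 h and did not at 18 h. At 24 h Tkt stood at 17.25, 17.20 and 17.18 in control and 16.49, 16.51 and 16.59 in Ikaros cells, so that the Ikaros libraries lay well below control.

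The Tkt difference was -0.16 at 12 h (limma, SE 0.09, adjusted p = 0.146), -0.25 at 18 h (adjusted p = 0.0158) and -0.69 at 24 h (adjusted p = 1.24e-07), a level 1.61-fold lower. This was the largest fall among the 7 genes at 24 h, in the member with the highest length-corrected level. Within batches it was -0.76, -0.70 and -0.59. The 18 h call was lost without replicate 1 (adjusted p = 0.166), without replicate 2 (adjusted p = 0.143) and in a fit of the 18 h groups alone (adjusted p = 0.0816), and a call at 12 h appeared without replicate 3 (adjusted p = 0.0409).

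Taldo1 (ENSMUSG00000025503; chromosome 7, 141392199 to 141402968, forward strand) encodes transaldolase, the other transfer enzyme. At 0 h its level was 14.08, 14.12 and 14.08 in control and 14.10, 14.11 and 13.88 in Ikaros cells. At 24 h it was 14.11, 14.10 and 13.93 against 14.48, 14.43 and 14.43. The groups overlapped at 0 h, and at 24 h all Ikaros libraries were higher. The Taldo1 difference was 0.27 at 12 h (limma, SE 0.12, adjusted p = 0.0705), 0.21 at 18 h (adjusted p = 0.15) and 0.40 at 24 h (adjusted p = 0.00625), a level 1.32-fold higher. Within batches the 24 h difference was 0.37, 0.32 and 0.50. The 24 h call was lost without replicate 2 (adjusted p = 0.0589), and a call at 12 h appeared without replicate 3 (adjusted p = 0.0435). The transfer enzymes thus ended on opposite sides of control.

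Whether the difference between the lines itself changed was asked next. From 0 h to 24 h the change was called for 5 members, 3 downward and 2 upward, where 48.4% of all genes were called, 24.2% in each direction. It was -0.61 for Tkt (limma, SE 0.12, adjusted p = 0.000169), -0.50 for G6pdx (SE 0.12, adjusted p = 0.00107), -0.36 for Pgd (SE 0.10, adjusted p = 0.00468), 1.13 for Pgls (SE 0.21, adjusted p = 5.79e-05) and 0.46 for Taldo1 (SE 0.17, adjusted p = 0.0281). The Taldo1 change was not called without replicate 1, 2 or 3 (adjusted p = 0.0738, 0.132 and 0.12), nor the Pgd change without replicate 1 or 2 (adjusted p = 0.0676 and 0.117). For Rpia it was -0.18 (adjusted p = 0.275) and for Rpe -0.19 (adjusted p = 0.596). Their 0 h differences were negative, at -0.18 and -0.26. Those of G6pdx (-0.12), Tkt (-0.07) and Taldo1 (-0.07) were negative too, and none of these was called at 0 h.

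From 2 h to 24 h, which uses no 0 h library, the change was called for 6 members, against 47.3% of all genes. Values were -0.88 for G6pdx (limma, adjusted p = 1.14e-06), -0.63 for Pgd (adjusted p = 1.13e-05), -0.68 for Tkt (adjusted p = 5.05e-05), -0.33 for Rpia (adjusted p = 0.0374), 1.02 for Pgls (adjusted p = 0.000232) and 0.43 for Taldo1 (adjusted p = 0.0442). Rpe was not called (-0.04, adjusted p = 0.924). The Taldo1 call was lost without replicate 1, 2 or 3 (adjusted p = 0.256, 0.142 and 0.0582), and the Rpia call without replicate 1 or 2 (adjusted p = 0.195 and 0.325). An F test over the 5 changes from 0 h called 5 members, G6pdx, Pgls, Pgd, Rpia and Tkt, where 59.8% of all genes were called. Without replicate 1 it lost Rpia (adjusted p = 0.0761), and without replicate 2 both Rpia (adjusted p = 0.155) and Tkt (adjusted p = 0.0792).

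Within the Ikaros line 5 members were called at 24 h against 0 h, among 60.6% of all genes, namely Pgls at 1.28, Taldo1 at 0.42, Tkt at -0.67, G6pdx at -0.36 and Pgd at -0.27. The Pgd call was lost without replicate 1 (adjusted p = 0.0635) and replicate 2 (adjusted p = 0.109), and that of G6pdx without replicate 2 (adjusted p = 0.0561). Control cells moved little between these times. There 0 members were called by limma, 0 had an unadjusted p under 0.05, and 0.470% of all genes were called, and the 7 changes ran from -0.05 to 0.16.

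The steps between neighbouring times, which share libraries, place the changes of the Ikaros line. From 0 h to 2 h, 2 members were called (19.2% of all genes), G6pdx at 0.28 and Pgls at 0.44, but neither without replicate 1, 2 or 3. In control cells the mean of Pgls also rose over this step, from 14.73 to 15.05, and that of G6pdx went from 13.23 to 13.14. The control step was not tested. From 2 h to 6 h limma called 0 members (11.2% of all genes), and 1 had an unadjusted p under 0.05. From 6 h to 12 h the 2 calls (20.8% of all genes) were G6pdx at 0.27, lost without replicate 1, 2 or 3 (adjusted p = 0.0689, 0.25 and 0.144), and Rpia at -0.53.

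From 12 h to 18 h the 2 calls (25.5% of all genes) were G6pdx at -0.69 and Pgd at -0.40, so the falls of these dehydrogenases were called in the same interval. With a replicate block for culture batch 4 members were called in this step, with Pgls at 0.38 (adjusted p = 0.0307) and Tkt at -0.23 (adjusted p = 0.0198) in addition. From 18 h to 24 h the calls were Tkt at -0.35 (limma, adjusted p = 0.0133) and Pgd at -0.24 (adjusted p = 0.0461), 2 members against 5.77% of all genes. Both were lost without replicate 1 (adjusted p = 0.242 and 0.464) and replicate 2 (adjusted p = 0.553 and 0.683), and with the replicate block G6pdx was called as well, at -0.27 (adjusted p = 0.0471).

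How the members varied together was described by Pearson correlations over libraries, which share time course and batches. Over all 36 libraries the 21 pairs ran from -0.86 for Pgls with Tkt to 0.81 for G6pdx with Pgd, with a median of 0.11, and 9 pairs were negative. Among the 12501 genes with a symbol, Pgd ranked 8 in likeness to G6pdx and G6pdx ranked 4 in likeness to Pgd. Pgls and Taldo1 were the next most alike of the members, with r = 0.77. By the same order Taldo1 ranked only 1265 in likeness to Pgls, and Pgls ranked 113 in likeness to Taldo1. The same 3 pairs led within each line. In the 18 Ikaros libraries r was 0.92 for G6pdx with Pgd, 0.74 for Pgls with Taldo1 and -0.85 for Pgls with Tkt, and in the 18 control libraries 0.55, 0.66 and -0.71.

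**Figure D4:**
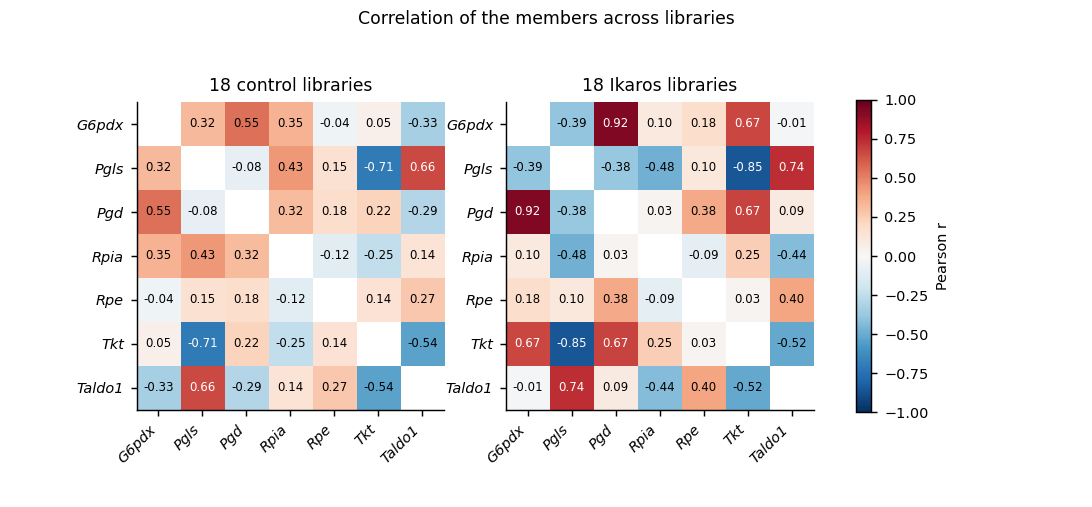
Pearson r between members over the 18 control libraries and over the 18 Ikaros libraries (colour and printed values, members on both axes). G6pdx with Pgd (0.55 and 0.92) and Pgls with Taldo1 (0.66 and 0.74) are positive in both lines, and Pgls with Tkt (-0.71 and -0.85) is negative in both.

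Control cells carried no Ikaros fusion, and the 3 pairs had the same signs there. In that line Pgls ranged over 0.83 log2 units and Tkt over 0.54, with batch 4 holding the highest Pgls level at 2, 6, 12, 18 and 24 h and the lowest Tkt level at the same times. Batch 4 of control cells at 2 h, for example, had Pgls at 15.34 and Tkt at 16.87, where batches 1 and 3 had Pgls at 15.00 and 14.81 and Tkt at 17.16 in both. The part of the culture batch in these correlations was not tested.

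The genes outside the pathway most like each member over the 36 libraries were Arpc2 (r = 0.88) and Anapc11 (0.86) for G6pdx, Rcor2 (0.84) and Rgs11 (0.84) for Pgd, and Usp3 (0.96) and Ip6k1 (0.96) for Pgls. For Tkt they were Ide (0.94) and Slc25a5 (0.94), for Taldo1 Cib1 (0.90) and Mtmr14 (0.88), for Rpia Lrrc32 (0.84) and Agxt2l2 (0.83), and for Rpe Gm14150 (0.75) and Tiprl (0.75). Rpe had no gene as close as the other members had. Over the 12 group means instead, Anapc11 stayed among the leading 2 for G6pdx and Slc25a5 for Tkt, and the other 12 names were replaced.

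Genes that supply or use what the pathway makes were read from 6 lists at 24 h, beside the 62.9% of all genes called. The first list held other enzymes of pentose phosphate and ribose metabolism, of which 13 of 20 had a value, 3 called higher and 7 lower with a median difference of -0.38. Its largest falls were Fbp1, a fructose bisphosphatase of gluconeogenesis, at -3.39 (limma, adjusted p = 5.55e-13) and Prps1, which turns ribose 5-phosphate into the nucleotide precursor PRPP, at -2.23 (adjusted p = 1.17e-14). Its largest rises were Idnk, a gluconate kinase that leads into the pathway at 6-phosphogluconate, at 1.21 (adjusted p = 1.06e-07) and Shpk, a sedoheptulose kinase, at 0.84 (adjusted p = 0.00323). H6pd, the counterpart of G6pdx in the endoplasmic reticulum, differed by -0.38 (adjusted p = 0.049).

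At the branch point with glycolysis 11 of 12 listed genes had a value, and 10 were called lower and 0 higher, with a median of -1.37. The largest falls were in Hk2, a hexokinase that makes glucose 6-phosphate, at -3.10 (limma, adjusted p = 6.99e-16) and Pfkp, a phosphofructokinase, at -2.77 (adjusted p = 5.72e-13). All 5 members that were lower fell by less than the median of this list. At 2 h the same list had 8 genes called higher and 0 lower, with a median of 0.61, when 9.18% of all genes were called higher, and this was the time at which G6pdx and Pgd were first called higher. Its median was already 0.25 at 0 h, with 1 gene called.

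The list of other NADPH sources had 11 of 16 genes with a value, 2 called higher, 6 lower and a median of -0.80. It also holds Aldh4a1, a dehydrogenase that makes mainly NADH, which was among the 6 lower, at -0.80. The folate enzymes Mthfd2 and Mthfd1 fell most, by -2.21 (limma, adjusted p = 1.92e-14) and -2.11 (adjusted p = 8.78e-14). Idh1, the cytosolic isocitrate dehydrogenase, rose most, by 2.27 (adjusted p = 4.5e-08), followed by the mitochondrial transhydrogenase Nnt at 1.36 (adjusted p = 1.38e-12). Different NADPH sources therefore stood on different sides of control.

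Redox defence genes, most of them in the NADPH-dependent glutathione and thioredoxin systems but with Cat, Sod1 and Sod2 that do not use NADPH as a substrate, had 19 of 20 with a value, 3 called higher and 12 lower, with a median of -0.63. Sod2, the mitochondrial superoxide dismutase, was at -1.89 (limma, adjusted p = 6.18e-11) and Txnrd3 at -1.88 (adjusted p = 1.74e-10), although Txnrd3 had been higher by 1.01 at 0 h (adjusted p = 0.000114), while the glutaredoxin gene Glrx was at 1.90 (adjusted p = 3.89e-11) and the glutathione peroxidase gene Gpx1 at 1.09 (adjusted p = 8.83e-08). Genes of the Nrf2 pathway were mixed, 6 higher and 9 lower of 20 with a value among 21, with a median of -0.07. Slc7a11, the cystine transporter, was at -3.24 (adjusted p = 7.31e-10) and Nqo1 at -2.95 (adjusted p = 3.41e-06), whereas Blvrb was at 2.77 (adjusted p = 3.33e-09) and Gstm1 at 2.16 (adjusted p = 1.91e-11). At 0 h Nqo1 was already at -1.12, without a call (limma, SE 0.46, adjusted p = 0.161). Slc7a11, Blvrb and Gstm1 were then at 0.03, -0.27 and -0.38, also without a call.

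Users of NADPH in biosynthesis, 15 of 15 with a value, had 3 called higher and 7 lower, with a median of -0.03. Pycr1 and Aldh18a1 of proline synthesis fell most, by -2.55 (limma, adjusted p = 1.48e-13) and -1.51 (adjusted p = 9.83e-12). Fdft1 and Cyp51 of sterol synthesis rose most, by 1.57 (adjusted p = 4.94e-13) and 0.57 (adjusted p = 0.000152). Fdft1 was already called higher at 0 h, at 0.38 (adjusted p = 0.0187). All genes together had a median of -0.0055 at 24 h.

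**Figure D5:**
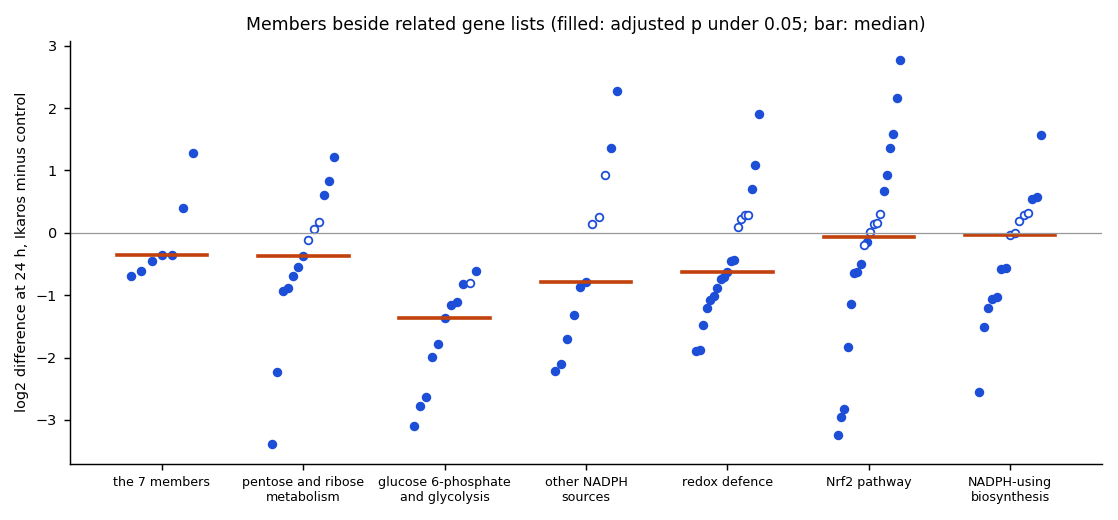
Log2 difference between Ikaros and control cells at 24 h (vertical axis) for the 7 members and the genes of 6 related lists (horizontal axis), 1 point a gene; filled points have an adjusted p under 0.05 and bars are medians. The members lie between -0.69 and 1.28, and the list at the branch point with glycolysis lies entirely below 0 with a median of -1.37.

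Of 10 transcription factors set beside the members, 6 were called higher and 3 lower at 24 h. Myc was lower by -2.52 (limma, adjusted p = 5.99e-13) and Trp53 by -0.93 (adjusted p = 7.31e-09). Bcl6 was higher by 4.36 (adjusted p = 1.17e-10) and Foxo1 by 2.13 (adjusted p = 5.6e-17). The lines differed in both genes at 0 h, with Bcl6 at 2.00 (limma, adjusted p = 0.000582) and Foxo1 at -0.35 (adjusted p = 0.00951). Nfe2l2, which encodes Nrf2 and is also on the Nrf2 list, was higher by 1.58. The 2 members with an antioxidant response element core in a searched window, G6pdx and Pgd, were lower. For Pgd that match lay in the transcribed part of its internal window, and its upstream window had none. These are values side by side, and no control of the members by any factor was measured.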

How the data were processed

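Strand-specific mRNA-seq of 36 B3 libraries was used as a table of 12762 genes. According to the study's methods and the submitters' processing notes, the authors mapped fragments to mm10 with TopHat2 (unique best hits), counted them per gene with HTSeq, normalized with cqn for GC content and length and removed library preparation effects with non-parametric ComBat. Deposited values are log2 expression plus a constant that sets the table minimum to 1. The base rests on cqn. Depth and counting error are unknown, 3 libraries per group limit precision, and adjustment before deposition can make errors too small. Tool versions and the strand setting are not given in the sources used here.

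A single limma model (version 3.58.1, R 4.3.3; lmFit, contrasts.fit, eBayes) with a mean per group was fitted to all genes. P-values are two-sided and adjusted over all genes by Benjamini-Hochberg, with calls at an adjusted p under 0.05. Batch numbers in the labels pair control and Ikaros cultures. Deviations of paired libraries from group means correlated between -0.062 and 0.507 over 18 pairs (median 0.127), 12 of them above 0.1. The script was tested on simulated data. The 2 largest called rises and 2 largest called falls at 24 h were named per list, and the 2 genes of highest Pearson r per member. Members and lists were chosen with earlier results of these data known. Positions are from GENCODE M21 (GRCm38, the build of mm10). Python 3.11.15, numpy 2.4.6 and pandas 2.3.3 were used for descriptions. A marker gene on the cell type list is not reported here.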

Additional observations from a re-analysis of the deposited data

Results flagged for a closer look

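The difference between Ikaros and control cells at 24 h was tested against that at 0 h, and 5 of the 7 genes differed between these times (limma, adjusted p under 0.05). The change was -0.50 for G6pdx, 1.13 for Pgls, -0.36 for Pgd, -0.61 for Tkt and 0.46 for Taldo1 on the log2 scale. In 48.4% of all genes the same test passed. Groups of 3 libraries were too small for a test of single outlying libraries.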

How the results depend on the processing

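Shares of all genes called were taken for the main fit only, so counts under the alternatives cannot be read as particular to the members. Replicates 1, 2 and 3 are culture batches 1, 2 or 3, and 4, and leaving one out removes it from every group. Counts of called members then ranged from 0 to 2 at 2 h, 0 to 1 at 6 h, 4 to 7 at 12 h, 2 to 3 at 18 h and 5 to 6 at 24 h for Ikaros against control. They ranged from 3 to 4 for the change from 0 h, from 4 to 5 for that from 2 h and from 3 to 5 for the F test. Within Ikaros cells they were 3 to 5 for 24 h against 0 h, 0 for the step to 2 h (with 2, 2 and 3 members at an unadjusted p under 0.05 in limma), 1 for that to 12 h, 1 to 4 for that to 18 h and 0 to 2 for that to 24 h.

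With only the compared groups fitted, 0 members were called at 2 h and at 6 h and 0 in the steps to 2, 12 and 24 h, where 0, 0, 1, 1 and 3 had an unadjusted p under 0.05 in limma. No such fit was made for the F test. The paired fit, a replicate block by culture batch, called 4 members in the step from 12 h to 18 h, added Rpia in the step to 2 h (adjusted p = 0.0325) and G6pdx in the step to 24 h, and changed no other call. The filter at the 25th percentile of mean expression (9571 genes) also called 4 in the step to 18 h, and quantile normalization called 1 in the step to 24 h. The cause of these shifts was not tested.

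For Ikaros against control at each time, 336 values of single members were read under 8 alternatives. The changes of the difference, the comparisons within a line and the F test are not in this count. Of the 336 values, 304 kept direction and side of the threshold, 17 lost a call, 4 gained one and 11 changed sign. None of the 11 was called. With quantile normalization Pgd at 0 h was -0.0036. Leaving out 1 replicate gave ranges across 0 for Pgd at 0 h (-0.015 to 0.032), Taldo1 at 0 h (-0.107 to 0.0019) and 2 h (-0.086 to 0.082), Rpia at 2 h (-0.074 to 0.052), Tkt at 2 h (-0.036 to 0.040), Pgls at 6 h (-0.045 to 0.119), and Rpe at 6 h (-0.060 to 0.357), 12 h (-0.432 to 0.014) and 18 h (-0.366 to 0.044). Depth is unknown, so no limit from counting can be given.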
